A study of Oncorhynchus mykiss with 16 samples.

Results

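In cultures of rainbow trout preadipocytes, a set of transcripts lost signal in 2 consecutive steps, first while the cells grew to confluence and again after the differentiation medium was added. The set consists of 150 array probes out of the 60195 probes that are not controls. RNA was taken on 4 days. The labels call the cells mesenchymal stem cells at day 3, proliferated cells at day 8, committed preadipocytes at day 15 and, at day 21, mature adipocytes. The RNA came from the 4 cultures numbered 4, 8, 9 and 10, with 1 array per culture and day. Each culture was started with cells of visceral fat pooled over several fish, a different pool each time, and each time point came from 1 flask, so that n = 4 cultures at each day. Cells grew in serum-containing medium until confluence at day 8, and from then on received insulin, 3-isobutyl-1-methylxanthine (IBMX), dexamethasone and a lipid mixture.

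The probes were chosen from the measured values. A probe had to be well above background, as the scanner software judged it, on all 8 arrays of days 3 and 8, and its mean over the cultures had to fall by more than 0.5 on the log2 scale between days 3 and 8 and again between days 8 and 15. Of the 59971 probes the rule looked at, 37783 met the background requirement and 1328 of these also met both falls. Each culture then gave a score, the smaller of its 2 falls, and the 150 probes with the highest score in their worst culture were kept. The falls to day 15 are therefore the reason for the choice and are described here without a test. The last probe inside, TC126524, had a lowest score of 0.599, and the first one outside, GB5RBPX02IIXKK.s.om.10, had 0.597, so the boundary is not a gap. Of the 1328 candidates, 755 fell in both steps in every culture.

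Adipogenesis is the conversion of fibroblast-like precursors in the stroma of fat tissue to lipid-filled adipocytes. In culture the precursors first proliferate and then stop dividing at confluence. They are then pushed into differentiation by a hormone mixture with insulin, IBMX, which raises cyclic AMP, and dexamethasone, which activates the glucocorticoid receptor. In mammals, genes of early proliferation and of the undifferentiated state are switched off in this course, while PPARγ and C/EBPα switch on the genes of lipid storage. The day 3 to 8 step of these data spans growth to confluence, and the day 8 to 15 step spans the first week in differentiation medium.

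The files do not name the genes of these transcripts. Of the 150 probes, 76 carried the identifier of a transcript contig (TC followed by a number), 27 carried a sequence accession and 47 carried the name of a single sequence read, and none of the 150 was paired with a gene name or found in the RefSeq gene table. A further 79 probes carried a readable name or, for some, a bare sequence accession of another form. All 79 belong to a separate probe design that the rule left out. Of the 57 of these that were tested, 8 fell in both steps, bare accessions such as AF434166.1 included, and 0 fell by more than 0.5 in both. The members are therefore described by identifier. Whether several of them are directed at the same transcript was not known, and they were not treated as independent. The labelled cell stages were not checked against markers. Of 12 marker and pathway lists looked up by gene symbol, 1 probe was found, for PPARγ, and it was well above background on 0 of 16 arrays. Some readable names are written out or cut short, such as phosphoenolpyruvate, and a lookup by symbol does not reach them.

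Between 65.5% and 80.5% of the spots of an array were well above background, and no spot was saturated. Below, a level is log2 of the background-corrected signal minus the 75th percentile of its array, so that 0 stands for a probe as bright as that percentile. On this scale all 150 members again fell in both steps in all 4 cultures, against 4.33% of the 42541 probes tested. The arrays lay on 2 slides, and day 3 was mostly on slide 1 and day 8 mostly on slide 2.

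The members started from high levels. Their median was 2.72 at day 3. By day 8 it was 0.83, by day 15 it was -0.83, and the day 21 arrays gave -1.05, whereas the median of all probes the rule could choose was -0.78, -0.79, -0.81 and -0.84 on the same days. At day 3, 81.3% of the members lay above the median of those probes. The day 3 values were among those that chose the members, so this level is a description. The 1151 candidates with complete signals that were not chosen had a median of -0.14 at day 3. The median member was 3.12-fold lower at day 8 than at day 3, and 2.97-fold lower at day 15 than at day 8. Between days 3 and 15 the median fall was 9.56-fold. Of that fall, a median of 51.5% was complete at day 8, and 93 of the 150 had the larger step first. Scoring by the smaller fall favours steps of similar size, so this share is a description. In the 1151 candidates not chosen the median was 51.3%, and 621 of them had the larger step first. Over the 124 members that were well above background on every array up to day 15, the share ran from 25.8% to 67.8%. Over all probes tested the median step was -0.04 and -0.01, so the median probe changed little. In RNA from whole flasks, fewer cells of a type and less RNA per cell cannot be told apart.

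**Figure D1:**
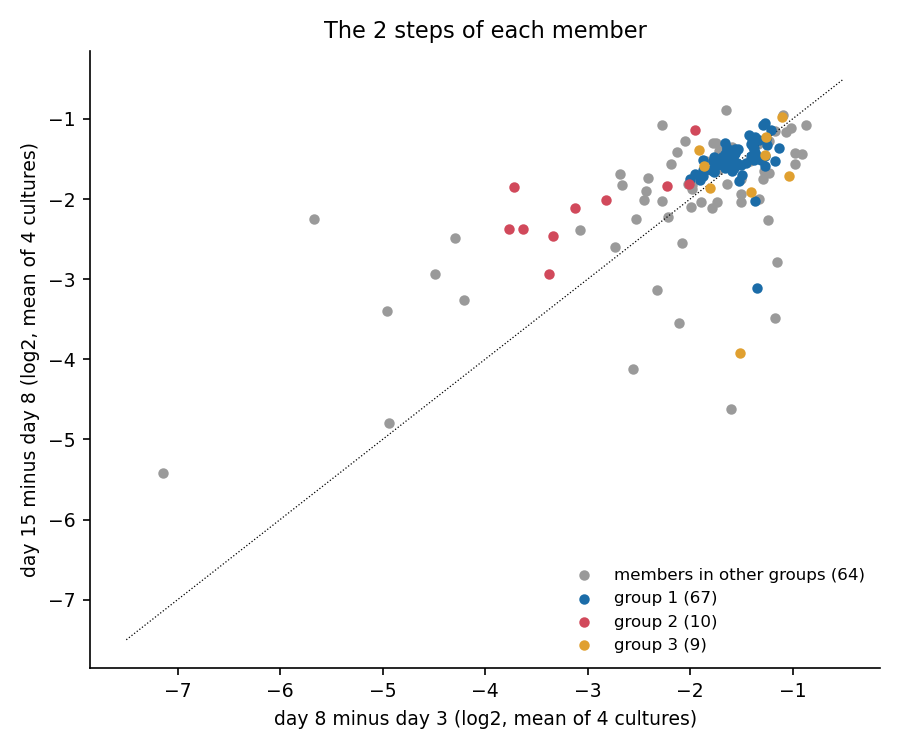
The step from day 3 to 8 (x axis) and from day 8 to 15 (y axis) of each of the 150 members, as differences of the mean log2 level over 4 cultures, coloured by the groups of co-varying members described in the text; the dotted line marks equal steps. The medians are -1.64 and -1.57, and 1 probe, X81485, lies apart at -7.14 and -5.41. It was not well above background at day 15, so its second step is not a measured size.

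The probe with the highest score was X81485.s.om.10. In cultures 4, 8, 9 and 10 its level was 5.72, 5.27, 4.57 and 6.28 at day 3, then -3.34, -4.51, -1.55 and 2.67 at day 8, -7.45, -7.57, -7.64 and -5.71 at day 15, and -7.57, -7.02, -6.63 and -2.43 at day 21. No 2 days overlapped up to day 15, and culture 10 lay above the other cultures throughout. In units of signal it stood between 17687 and 48546 at day 3, and between 3.22 and 12.4 at day 15. It was not well above background in any culture at day 15, so only a bound can be given. Day 15 was at least 1877-fold lower than day 3 and at least 13.3-fold lower than day 8, where the dim day is set on each array at the lowest signal of any probe well above background, or at the probe's own value where that is higher. At day 21 it was again well above background in 1 culture, number 10.

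TC110491 and TC125695 had similar levels up to day 8 and differed in culture 4 at day 15. TC110491 was at 1.79, 2.35, 2.43 and 3.62 at day 3, at -0.37, -4.09, -3.91 and -1.21 at day 8, at -7.14, -6.54, -7.39 and -7.68 at day 15, and at -6.67, -7.21, -6.88 and -5.58 at day 21. At day 8 it was lower in cultures 8 and 9 than in cultures 4 and 10. TC125695 was at 1.46, 2.27, 2.75 and 3.42 at day 3 and at -0.51, -4.20, -3.89 and -1.33 at day 8, again with cultures 8 and 9 lowest. It was at -3.80, -6.29, -7.44 and -6.03 at day 15, where culture 4 stood highest, and at -6.98, -5.22, -6.31 and -5.48 at day 21. TC110491 was at least 249-fold lower at day 15 than at day 3, and TC125695 at least 219-fold lower at day 21 than at day 3, both from above background to not well above background on the whole day.

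TC124742 was well above background on all 16 arrays and had the largest fall among the members so measured. Its level was 2.36, 2.70, 2.44 and 5.05 at day 3, -0.40, -2.06, -1.96 and 0.15 at day 8, -4.68, -4.29, -4.79 and -3.55 at day 15, and -4.88, -3.75, -3.27 and -2.01 at day 21. Culture 10 again lay above the others throughout. Days 3, 8 and 15 did not overlap, and from day 3 to day 15 the mean fell by 7.47 (standard error 0.69, n = 4). FYV3OTN01D1WYI.s.om.10, also above background throughout, was at 5.55, 5.60, 4.58 and 4.53 at day 3, at -0.07, 2.34, 0.59 and -0.55 at day 8, at -2.60, -1.86, -2.73 and -2.28 at day 15, and at -3.34, -1.84, -2.20 and -2.21 at day 21. The last 2 days overlapped, and over the same span as above it fell by 7.43 (standard error 0.51). The next largest falls above background throughout were those of TC117384 (fell by 6.79, standard error 1.32), TC118249 (fell by 6.68, standard error 0.53) and TC119632 (fell by 6.23, standard error 0.58). The standard errors of this paragraph come from a fit without culture as a block, so lasting level differences between cultures count as spread.

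The timing within these large falls differed. TC118249 was at 5.17, 5.87, 5.40 and 6.93 at day 3, at 4.05, 3.09, 2.24 and 3.75 at day 8, and at -1.87, 0.25, -1.62 and -0.11 at day 15, so the larger step came after the medium change. TC119632 had the same order of steps, -1.60 and then -4.62, with 2.26, 2.39, 1.31 and 4.35 at day 3, 0.71, 1.00, -0.03 and 2.21 at day 8, and -3.82, -3.33, -4.39 and -3.05 at day 15. In TC117384 the cultures were far apart on every day. It was at 3.07, 5.95, 3.35 and 8.00 at day 3, at -0.38, 2.03, -1.95 and 3.47 at day 8, at -2.81, 0.66, -4.03 and -0.62 at day 15, and at -3.72, -1.76, -4.68 and -3.54 at day 21. Cultures 8 and 10 were the upper pair at all 4 days, the SD between cultures at day 3 was 2.33, and neighbouring days overlapped although each culture fell.

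Members with smaller falls could be more even between cultures. TC126291 was at 3.33, 4.06, 3.59 and 3.58 at day 3, at 1.69, 2.20, 1.34 and 2.18 at day 8, at -0.17, 0.04, -0.69 and -0.21 at day 15, and at -1.11, -0.61, -1.33 and -0.12 at day 21. The first 3 days were well apart, and days 15 and 21 overlapped. TC96319 was similar at a lower level, with means of 1.21 ± 0.65, -1.22 ± 0.58, -3.12 ± 0.25 and -3.37 ± 0.42 on the 4 days (SD, n = 4). TC115587 was among the brightest members, at 6.80, 7.25, 6.81 and 7.03 at day 3, at 5.01, 4.42, 4.11 and 5.24 at day 8, at 3.42, 2.31, 2.17 and 2.80 at day 15, and at 3.27, 1.51, 2.86 and 2.43 at day 21. TC121913 and TC128889 followed it, with means of 5.98 and 6.81 at day 3, of 3.46 and 4.08 at day 8, and of 1.20 and 1.48 at day 15, and in all 3 probes culture 4 had the highest level at days 15 and 21.

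**Figure D2:**
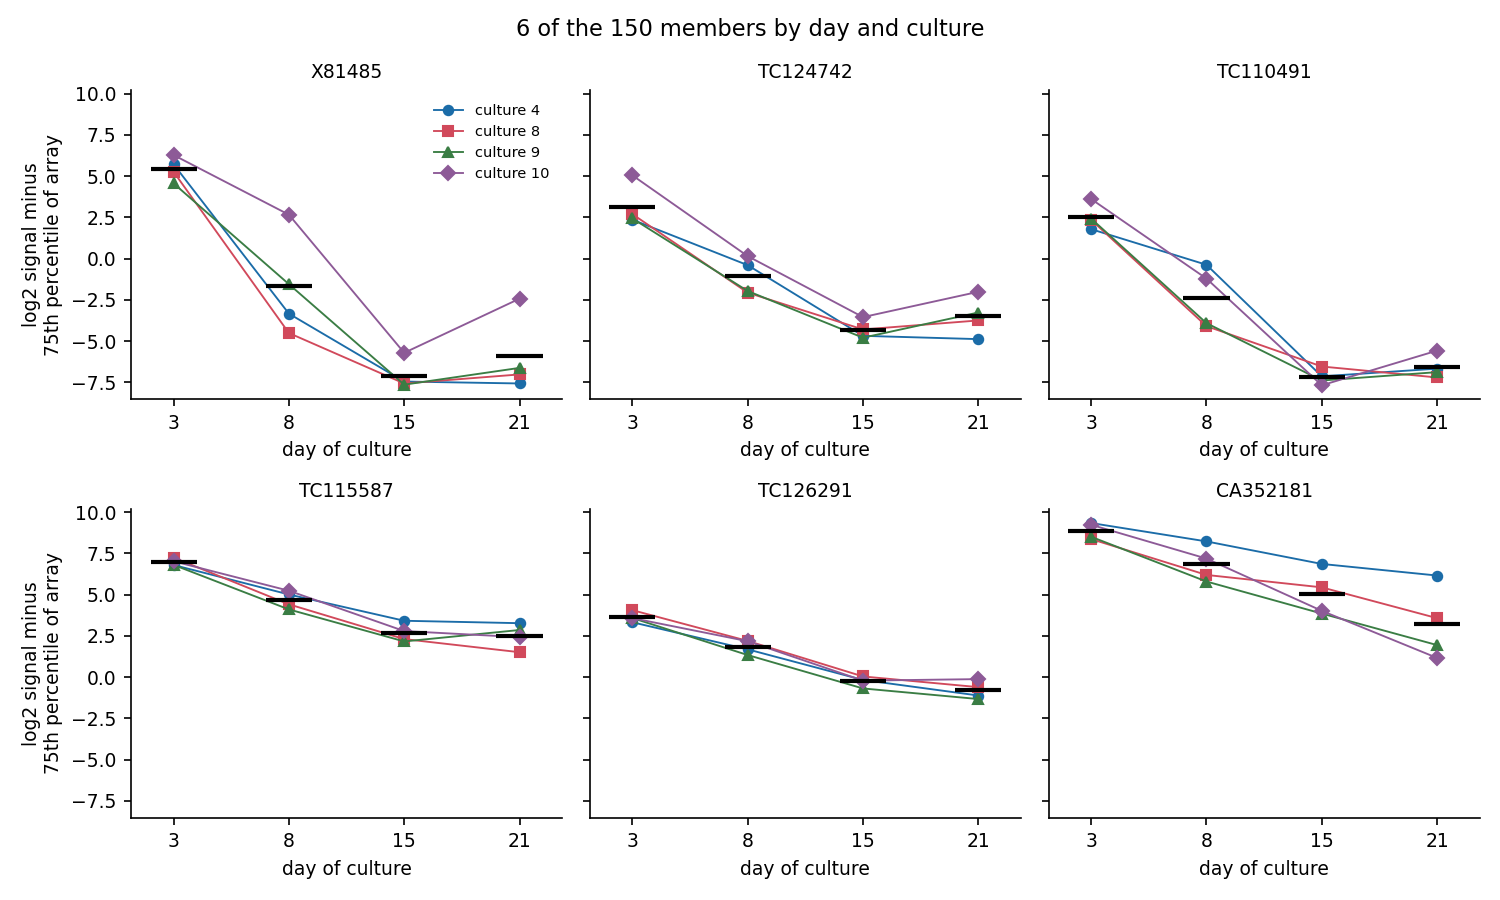
Log2 signal relative to the 75th percentile of the array (y axis) by day of culture (x axis) for 6 members, with 1 line and marker shape per culture and a black bar at the mean of the 4 cultures. At day 15 the first 3 panels lie between -7.68 and -3.55, TC115587 and TC126291 have cultures lying close together up to day 15, and in CA352181 the cultures spread apart up to day 21.

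Among the members, 124 had day 8 entirely below day 3 with no overlap of the 4 cultures (11.5% of all probes tested did), 62 had day 15 entirely below day 8 (5.25% of all), and all 150 had day 15 entirely below day 3 (17.1% of all). Since the same values chose the members, nothing is read from these shares. The same holds for calls. With limma, at an adjusted p below 0.02 and a ratio above 3 (the limits the study set on p and fold change, here put on the adjusted p), 46 members were called lower at day 8 than at day 3 (0.997% of all probes) and 31 lower at day 15 than at day 8 (0.313% of all), and 148 changed over the 4 days (8.85% of all). With culture as a block, 80 were called in the first step (1.42% of all probes) and 58 in the second (0.672% of all). With slide as a block, 25 were called in each step (0.703% and 0.24% of all). Without culture 4 the steps gave 40 (1.08% of all) and 8 (0.107% of all), and without culture 8 they gave 16 (0.366% of all) and 1 (0.0186% of all). Without culture 9 they gave 14 (0.41% of all) and 0 (0.0116% of all), and without culture 10 they gave 28 (0.976% of all) and 19 (0.499% of all).

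Falls in both steps can also be read in a culture that the choice did not use, for probes chosen anew each time. The rule was applied to 3 cultures at a time, and the 150 probes it then gave were read in the fourth. In culture 4, 139 of the 150 (92.7%) were lower in both steps, against 19.5% of all probes that this choice could have taken. In culture 8 this held for 127 (84.7%, against 21.4%), in culture 9 for 148 (98.7%, against 21.8%) and in culture 10 for 121 (80.7%, against 14.6%). The candidates of each choice, whose means over the 3 cultures fell by more than 0.5 in both steps, were much closer to the 150. Of these candidates, the 150 included, 76.1%, 79.0%, 85.0% and 61.5% were lower in both steps in cultures 4, 8, 9 and 10. A fall of more than 0.5 in both steps was found for 123, 105, 142 and 94 of the 150 in cultures 4, 8, 9 and 10, against 3.75%, 3.73%, 3.92% and 2.39% of all. The exceptions were not spread evenly. In culture 8, 22 of the 23 probes that broke the pattern failed to fall in the second step, whereas in culture 10, 21 failed to fall in the first. These 4 choices shared 111, 100, 138 and 90 probes with the 150 described here. Cultures 8, 9 and 10 all had day 3 on slide 1 and day 8 on slide 2, so reading 1 of them repeats that layout. The part of the slide in these falls was not tested.

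**Figure D3:**
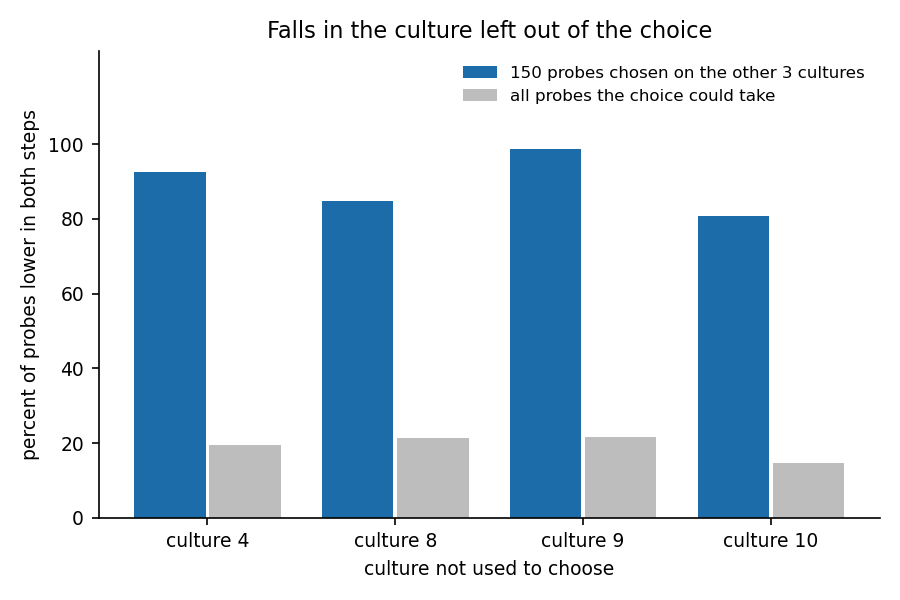
Percent of probes lower at day 8 than at day 3 and lower again at day 15 (y axis) in each culture when that culture was left out of the choice (x axis), for the 150 probes chosen on the other 3 cultures (left bars) and for all probes that choice could have taken (right bars). The left bars reach 80.7% to 98.7% and the right bars 14.6% to 21.8%. All candidates of each choice, which are not drawn, reach 61.5% to 85.0%.

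The 2 steps of the members also differed in size between cultures. There is 1 array per culture and day, and both steps share the day 8 array. The median level of the members on it was 0.12, 1.69, 0.07 and 1.55 in cultures 4, 8, 9 and 10. A low day 8 array gives a larger first and a smaller second step. A difference in timing and a difference between single arrays therefore cannot be told apart. The median first step was -2.01 in culture 4, -1.37 in culture 8, -2.02 in culture 9 and -1.05 in culture 10, and the median second step was -1.20, -1.61, -1.43 and -2.20 in the same order. In these medians cultures 4 and 9 had the larger first steps and culture 10 the smallest. The second step was largest in culture 10 and smallest in culture 4. This order did not hold throughout the set. For the 83 members outside the largest group of co-varying members, described below, the median first step was -1.51, -2.24, -2.20 and -1.54 in cultures 4, 8, 9 and 10. Their median second step was -1.80, -1.57, -1.82 and -2.03. In the largest group the first step was -2.34, -1.14, -1.96 and -0.77. The score that placed a probe came most often from culture 4 (68 of 150, 53 of them by its second step), followed by culture 10 (36, of which 25 by its first step), culture 8 (32) and culture 9 (14). The median SD of a member on days 3, 8, 15 and 21 was 0.45, 0.81, 0.65 and 0.69, against 0.30, 0.34, 0.29 and 0.35 over all probes tested. At days 3 and 8 culture 4 was on the slide opposite to the others (slide 2 at day 3 and slide 1 at day 8). The part of the slide in its first step was not tested.

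Much of this spread was shared. When the mean of each day was taken from every probe and the members were grouped by the correlation of what remained over the 16 arrays (average linkage, distance of 0.3, chosen after the values were seen), 1 group held 67 of the 150. It is called group 1 here. The median correlation between its members was 0.94, whereas among the 83 other members it was 0.15. The grouping was made on these correlations, so this contrast is a description. Group 1 covered much of the range of brightness, from -1.76 to 7.89 at day 3, but its members fell by nearly equal amounts. The median steps were -1.56 and -1.51, with a 10th to 90th percentile of -1.82 to -1.27 for the first and of -1.69 to -1.26 for the second. By other distances, from 0.1 to 0.5, the largest group held 57 to 75 members.

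By the way the group was formed, the arrays on which group 1 was high or low were largely the same for its members. The median of the group was 3.95, 4.66, 3.61 and 3.70 at day 3 in cultures 4, 8, 9 and 10, and 1.45, 3.42, 1.60 and 2.90 at day 8. It was 0.63, 1.73, 0.29 and 0.69 at day 15, and -0.24, 0.88, 1.32 and 0.99 at day 21. Culture 8 was the highest up to day 15. At day 8 cultures 8 and 10 stood above cultures 4 and 9 by more than 1, and culture 9, the lowest at day 15, was the highest at day 21. CA355573.s.om.10, the member of group 1 with the highest score, followed this at 5.08, 5.75, 4.86 and 5.35 at day 3, 2.58, 4.48, 2.55 and 4.01 at day 8, 1.27, 2.94, 1.19 and 1.69 at day 15, and 0.77, 1.89, 2.36 and 1.86 at day 21.

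**Figure D4:**
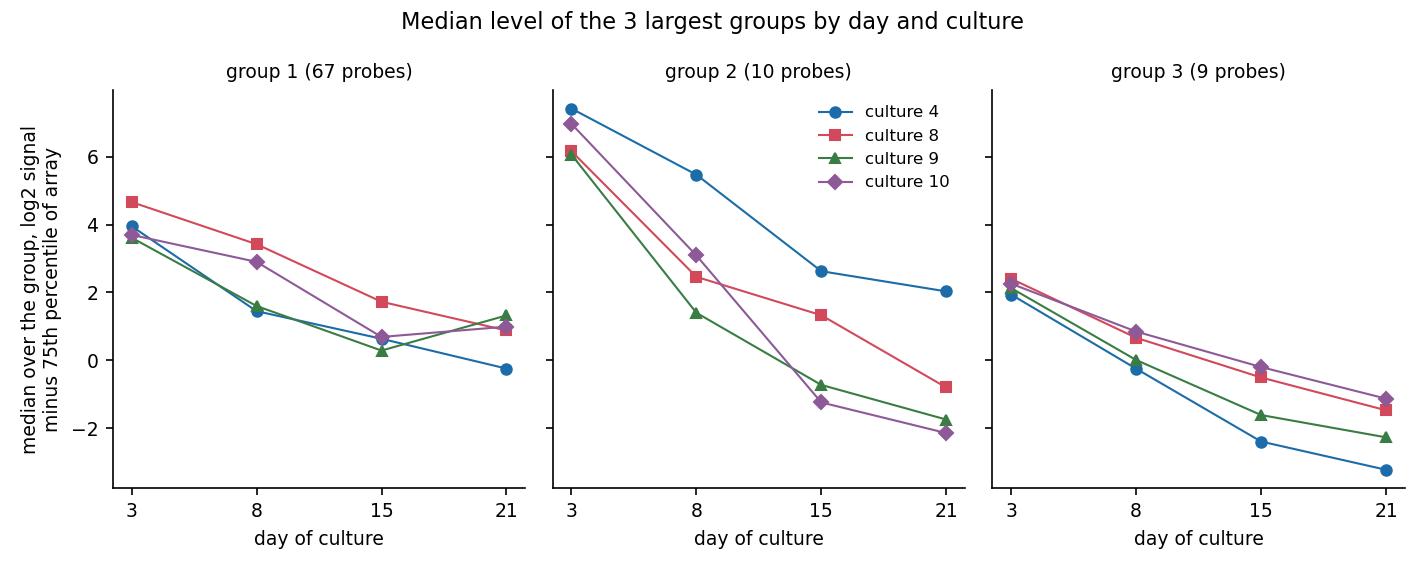
Median log2 signal relative to the 75th percentile of the array (y axis) by day of culture (x axis) over the members of group 1 (67 probes), group 2 (10 probes) and group 3 (9 probes), with 1 line per culture. In group 1 culture 9 turns upward after day 15, in group 2 culture 4 stays highest on every day and reaches 2.03 at day 21, and in group 3 all 4 cultures go on falling.

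Few probes of the array had the profile of group 1, and the same was true of groups 2 and 3. Only 145 of the 42541 probes tested (0.341%) had a correlation above 0.9 with it after the day means were removed. Of these, 59 were members and 86 were not. All 86 of the others had day means falling by more than 0.5 in both steps, against 4.05% of all probes tested. Their median steps were -1.31 and -1.30. The profile came from members chosen for these falls on the same arrays, so the falls of the 86 are not independent of the choice. The correlations rest on 16 arrays and are a description. Without culture 9 the profile took in 203 other probes, of which 104 fell by more than 0.5 in both steps, without culture 10 it took in 141, of which 119 did, and without culture 4 or culture 8 it took in 107 and 80, of which 97 and 74 did. The probes share those arrays, and some may be directed at the same transcript. For the profile of group 2 the same limit gave 180 probes (0.423%). Of these, 173 were outside the members, and 73 of those fell by more than 0.5 in both steps. For group 3 it gave 213 probes (0.501%), with 207 outside the members, of which 39 did. By identifier, group 1 leaned to single reads, which made up 35 of its 67 probes (52.2%), against 14.5% of the other members and 29.0% of the probes the rule could choose. Contigs made up 26.9% of group 1 and 69.9% of the other members.

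Group 1 had a wider spread between cultures than the other members at day 8 and a narrower one on the other days. The median SD of its members on days 3, 8, 15 and 21 was 0.41, 0.92, 0.61 and 0.66, against 0.56, 0.58, 0.71 and 0.89 in the other members. By calls, 9 of the 67 were called in the first step and 2 in the second, and 37 and 29 of the 83 others (0.997% and 0.313% of all probes). With culture as a block, 30 and 16 of group 1 were called, and 50 and 42 of the others (1.42% and 0.672% of all probes). The same steps chose the members, so nothing is read from these counts.

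Group 2 was brighter and fell further. It held 10 probes, TC97868, CU070267, TC101310, TC101239, BX073980, CR943556, TC95021, TC114370, CA352181 and TC112708, with medians of 6.68, 3.11, 0.45 and -0.91 on days 3, 8, 15 and 21. All 10 had the larger step first, with a median of -3.23 and then -2.06. In the group median culture 4 came first on every day, with a group median of 5.47 at day 8 against 1.40 to 3.09 in the others, and of 2.03 at day 21 against -2.15 to -0.80. Its brightest member, CA352181.s.om.10, was at 9.35, 8.37, 8.51 and 9.24 at day 3, 8.23, 6.20, 5.80 and 7.19 at day 8, 6.87, 5.45, 3.86 and 4.02 at day 15, and 6.16, 3.58, 1.94 and 1.17 at day 21. The spread between the cultures thus widened with time, to an SD of 2.21 at day 21 against 0.50 at day 3. TC114370 of this group differed most between cultures at the start, at 4.39, 1.11, 1.53 and 3.47 at day 3 (SD 1.56).

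Day 21 was not used to choose the members, while day 15 was. The median member was lower by 0.14 on the log2 scale at day 21 than at day 15, against a median of -0.03 over all probes tested. Over the 118 members well above background on every array, the difference ran from -1.83 to 1.09. The mean was lower at day 21 for 114 of the 150. No member was called in either direction, as no probe of the array was (0% of 42541), and the lowest adjusted p of a member was 1.00 with limma and 0.554 with culture as a block. At an unadjusted p below 0.05, 5 members were lower (2% of all probes) and 1 was higher (1.48% of all). With culture as a block these were 21 (4.61% of all) and 2 (2.72% of all). No member had day 21 and day 15 without overlap in either direction, which 1.44% of all probes had downward and 0.874% upward. At day 21, 147 members were still below every culture of day 3 (16.9% of all probes were) and 104 below every culture of day 8 (7.68% of all). The rule used days 3 and 8, so these counts are a description.

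The small median hides opposite changes in the cultures. At day 21 the members had a median difference from day 15 of -0.71 in culture 4 and -0.83 in culture 8, but of 0.68 in culture 9 and 0.10 in culture 10, while the median of all probes tested lay between -0.07 and -0.01 in each culture. Of the 150, 127 were lower at day 21 in culture 4, 129 in culture 8, 40 in culture 9 and 59 in culture 10. The median over the members was 0.07 without culture 4 or without culture 8, -0.46 without culture 9 and -0.27 without culture 10, so its sign rested on single cultures. Of the 3 largest groups, group 1 had its cultures furthest apart. It had medians of -0.92, -0.91, 0.99 and 0.28, and 65, 66, 0 and 9 of its 67 members were lower at day 21 in cultures 4, 8, 9 and 10. The grouping used these arrays, so the likeness of its members here is a description. In the 83 members outside group 1 the cultures differed less. Their medians were -0.31, -0.57, 0.04 and -0.13, and 62, 63, 40 and 50 of them were lower. Cultures 4 and 9, which moved in opposite directions in group 1, both had their day 15 array on slide 2 and their day 21 array on slide 1. The part of the slide or of single arrays in these changes was not tested.

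**Figure D5:**
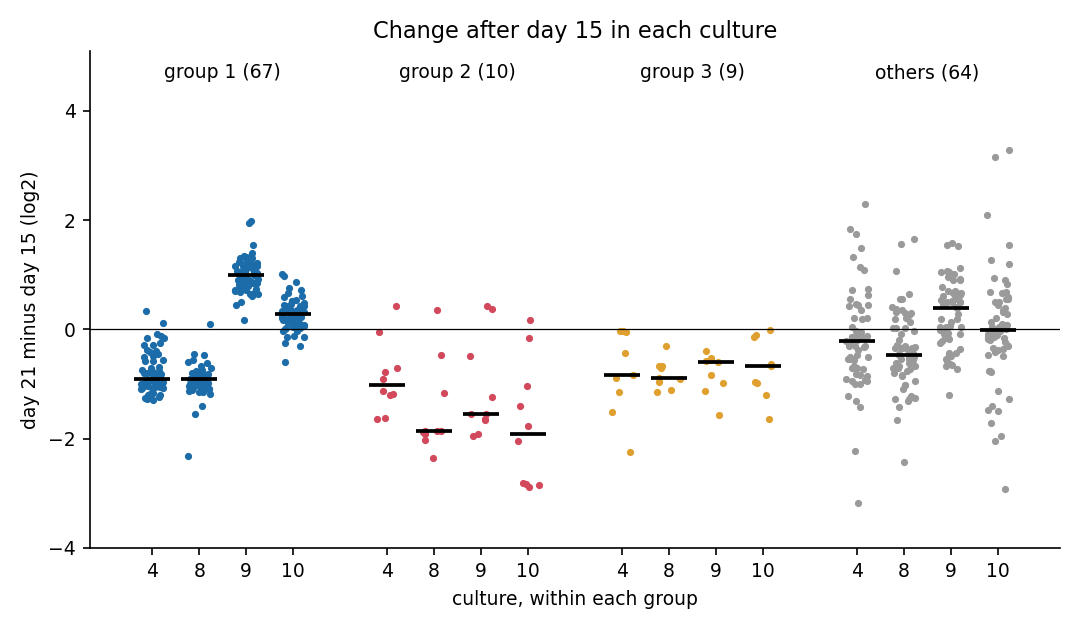
Difference of log2 level between day 21 and day 15 (y axis) in each culture (x axis) for the members of groups 1, 2 and 3 and the 64 others, with 1 point per member and a bar at the median. Group 1 lies below 0 in cultures 4 and 8 and above 0 in culture 9, and group 3 lies below 0 in every culture.

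Some members were lower again in every culture at day 21. Of the 150, 26 were lower at day 21 than at day 15 in all 4 cultures (17.3%, against 12% of all probes tested), and none of these was in group 1. Not all of the 26 were measured above background. TC102927, among them, was well above background in no culture at day 21. In culture 4 it went from -7.44 to -7.58, where the lowest signal well above background at day 21 was -5.37. Group 3, with 9 members, was lower in every culture for all 9, with medians of -0.83, -0.89, -0.59 and -0.66 in cultures 4, 8, 9 and 10. The grouping used these arrays, so the likeness of the 9 is a description. Of the 9, 7 were well above background on all 16 arrays. In group 2 the medians were -1.02, -1.87, -1.55 and -1.91. With culture as a block in limma, the lowest adjusted p of a group 2 member was 0.630, and that of a group 3 member was 0.554. In the fit without this block, lasting level differences between cultures count as spread, and the standard errors below come from that fit. Among these 26, the 4 largest falls in the mean were in group 2, and none was called in either fit. They were CA352181 (-1.83, standard error 0.92), BX073980 (-1.80, standard error 1.10), TC101310 (-1.79, standard error 1.30) and TC95021 (-1.79, standard error 1.06), each with an adjusted p of 1.00 in limma, followed by TC117384 (-1.73, standard error 1.32). BX073980 was at 3.15, 0.28, -1.34 and -2.21 at day 21, against 4.06, 2.13, 0.21 and 0.68 at day 15, and TC101310 was at 1.99, -0.77, -3.55 and -4.62, against 2.05, 1.58, -1.60 and -1.81. In both probes culture 4 was the highest and moved least, and TC101310 was well above background in 3 of the 4 cultures at day 21.

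The 5 members below an unadjusted p of 0.05 in the downward direction, named after their values were seen, were TC115260, TC112295, TC131624, TC112051 and TC122029, and each was lower in all 4 cultures. TC112295 was at -2.76, -0.65, -1.92 and 0.82 at day 21, against -0.51, 0.46, -0.36 and 1.44 at day 15. TC115260 was at -3.63, -1.66, -3.31 and -2.02, against -2.12, -0.77, -2.19 and -0.37. Both belong to group 3, and in both the 2 days overlapped between cultures though each culture fell.

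Only 4 members were higher at day 21 in all 4 cultures (2.67%, against 8.08% of all probes tested), namely TC119632, TC108162, TC129006 and FYV3OTN02HONV2. TC129006 was well above background on 2 of 4 arrays at day 15 and on 2 of 4 at day 21, so its rise is partly below measurement. In culture 8 the rises of TC119632 (-3.33 to -3.31) and FYV3OTN02HONV2 (-4.64 to -4.62) were very small. TC119632 was at -2.33, -3.31, -2.81 and -1.77 at day 21, against -3.82, -3.33, -4.39 and -3.05 at day 15, a difference of 1.09 (standard error 0.58). TC108162 was at -2.33, -1.34, -2.40 and -3.34, against -2.96, -2.99, -3.47 and -3.38, a difference of 0.85 (standard error 0.34). The days overlapped in both, the adjusted p was 1.00 in limma for both, and both stayed below every culture of day 3.

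Loss of signal to the level of the background concerned a minority of the members, but a larger share than among the probes the rule could choose. Of 37268 such probes with complete signals, 35811 were well above background in all 4 cultures at day 21 and 46 in none. At day 15 this held for 36588 and 29. The members were chosen for falling to day 15, so nothing is read from this difference. At day 21, 118 of the 150 were well above background in all 4 cultures and 10 in none, and at day 15 this held for 124 and 6. For the dimmest of these only small bounds can be given, such as at least 2.55-fold lower at day 21 than at day 3 for TC122596 and at least 4.69-fold for TC97763, while TC102927 was at least 32.0-fold lower. Over the arrays of these 2 days the number of members well above background ranged from 127 to 137.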

How the data were processed

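RNA of 4 cultures at 4 days was labelled with Cy3 and hybridised to one-colour Agilent arrays. The authors read the spot intensities with Feature Extraction (10.7.3.1 in the labels), a program that corrects each spot for its background, and deposited these intensities along with a table of log2 values made in GeneSpring, whose version is not given in the sources used here. For 98.3% to 98.5% of the probes of an array, the deposited log2 value was the log2 processed intensity shifted by the same constant (tolerance 0.001). The 150 members were chosen from that table. All of its value columns were matched to samples.

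For levels and tests, control spots and outlier spots were left out, spots of one probe were averaged (3 members had 2 spots), and log2 of the processed intensity was taken minus the 75th percentile of each array, which lay between 528 and 897 units. Values were missing for 1050 of 60195 probes. The fit took in the 42541 remaining probes for which every array of at least 1 of the 4 days was well above background. It used limma 3.58.1 in R 4.3.3 with 1 mean per day, and p-values were adjusted by Benjamini-Hochberg over all of them. A probe was called at an adjusted p below 0.02 and a ratio above 3. The number of arrays limits the precision. The fit was tested on simulated data. Groups and figures were made with Python 3.11.15 and its packages scipy 1.17.1, numpy 2.4.6, matplotlib 3.10.9 and pandas 2.3.3.

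Named members are the 10 with the highest scores, the 5 largest falls to day 15 above background throughout, the 5 largest falls and up to 5 rises after day 15 shared by all cultures, the 3 with the highest SD at day 3, and those at the limits of the choice. Others are named as examples after their values were seen. The members and lists were chosen with earlier results of these data known, and the groups of co-varying members after their values were seen. The 4 arrays of a culture go back to the same pooled cells, so the culture numbers pair the arrays, and each count was also computed with culture as a block. After the day means were removed, arrays with the same number correlated across probes at 0.47 to 0.58 between days 8 and 15 and at 0.48 to 0.70 between days 15 and 21, but at 0.37, 0.39, 0.10 and -0.14 between days 3 and 8 in cultures 4, 8, 9 and 10. The 12 lists of markers and pathways, looked up by gene symbol, could not be tested, since hardly any probe has a gene name in the files. No probe sequence was used here. Alternatives covered the culture and slide blocks, the scaling and background correction, the filter on dim probes, the rule of choice and each culture left out.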

Additional observations from a re-analysis of the deposited data

Results flagged for a closer look

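In 108 groups of 4 cultures (named members and group medians, by day), 3 had a highest culture set apart from the others by more than Dixon's critical value, where chance gives about 1 in 20. For X81485 at day 15, culture 10 gave -5.71, while the other cultures gave -7.64 to -7.45, so the gap made up 0.902 of the range, and none of these 4 arrays was well above background for the probe. For TC124742 at day 3, culture 10 gave 5.05 and the others 2.36 to 2.70, a gap of 0.874 of the range, and culture 10 also gave its highest value at days 8, 15 and 21. For TC128889 at day 15, culture 4 gave 3.10 and the others 0.72 to 1.10, a gap of 0.839 of the range. Culture 4 again gave the highest value at day 21, with 2.60, while the others gave 0.33 to 1.34.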

How the results depend on the processing

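Of 160 values recomputed under an alternative, 124 stayed within 1.5 times the value given above or, for the median change after day 15, within 1 SD between cultures (0.71), and 36 moved, 22 of them with 1 culture left out. These limits are wide. The median change was -0.14, and its reversed sign without culture 4 or culture 8 (0.07) counted as staying. So did 0 calls against 0 after day 15, and 100 shared members of 150. No alternative gave a member called between days 21 and 15. Pairing the arrays by culture as a replicate block gave 80 members called lower at day 8 and 58 at day 15, 21 lower and 2 higher at day 21 at an unadjusted p below 0.05, and 286 instead of 133 probes of the whole array called lower at day 15. It moved no other count by over 1.5 times. With slide as a block, 25 members were called lower at day 8. With normexp background correction, 17 members were called lower at day 15 and 2 were lower at day 21 at an unadjusted p below 0.05, and on the whole array 232 and 56 probes were called lower in the 2 steps. With probes well above background on all arrays only, these were 245 and 83, and with no filter on dim probes the second was 83. Leaving out 1 culture at a time gave 14 to 40 members called lower at day 8 and 0 to 19 at day 15, 1 to 9 lower and 0 to 3 higher at day 21 at an unadjusted p below 0.05, and 157 to 464 and 5 to 221 probes of the whole array called in the 2 steps. Scoring by the mean over cultures instead of the worst culture shared 86 of the 150 members, and choosing on 3 cultures shared 90 to 138. The profile of group 1, an alternative added after the data were seen, took in 80 to 203 other probes with 1 culture left out. The causes of these differences were not tested. Members near the background at days 15 and 21 have only bounds, and 4 cultures limit every comparison.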
